A study of Homo sapiens with 12 samples.

Results

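The data described here are the difference between the effect of high-dose AA in LKB1-deficient cells and its effect in LKB1-intact cells, gene by gene. The difference was calculated as the log2 change under AA in deficient cells minus the log2 change under AA in intact cells, on all 12 count libraries of the series, and it uses all 12. Of 20323 genes in the deposited tables, 12718 passed the filter on low counts and were tested, and these were then sorted by whether AA moved them in opposite directions in the genotypes or in 1 direction to a different extent.

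The cells are labelled A549, an established human lung adenocarcinoma line, and messenger RNA was selected with oligo(dT) and sequenced. The intact PBS group is labelled wild type and received phosphate-buffered saline, the intact AA group is labelled wild type and received high-dose AA (vitamin C in the titles, that is ascorbate), the deficient PBS group is labelled LKB1-deficient and received saline, and the deficient AA group is labelled LKB1-deficient and received high-dose AA, with 3 libraries in each of the 4 groups. The labels give no dose or exposure time, do not say how either genotype was made or whether each is 1 clone, and do not say whether both genotypes were treated in 1 experiment, so genotype and any difference in treatment between the genotypes cannot be told apart. They also do not say that the 3 libraries of a group came from separate cultures. What a p-value sets a difference against is then the variation among 3 libraries, and that variation may be technical. In bulk RNA, fewer cells of a kind and less RNA per cell cannot be told apart.

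LKB1, the product of STK11, is a kinase that activates AMPK and the AMPK-related kinases, which slow biosynthesis and adapt metabolism when energy runs low. Ascorbate at high dose is oxidised outside and inside cells and is known as a source of hydrogen peroxide in culture. Cells answer amino acid shortage, unfolded proteins in the endoplasmic reticulum or oxidative damage partly through the integrated stress response, in which phosphorylation of eIF2 slows translation and raises the transcription factor ATF4 and its target genes.

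In the titles the intact libraries are called WT and the deficient ones con. STK11 (ENSG00000118046) was examined first, as the check of the genotype labels, though its level cannot show whether LKB1 was removed or restored. Its level was 25.4, 24.6 and 23.6 CPM (the gene's count relative to all counts of its library, scaled by TMM factors) in the intact PBS libraries and 24.3, 28.2 and 25.6 CPM in the intact AA libraries. In the deficient libraries it was 5.94, 6.56 and 4.86 CPM under PBS and 5.61, 7.34 and 6.97 CPM under AA. The deficient libraries were all lower than any intact one, and the AA effect on STK11 itself was not found to differ between the genotypes (difference 0.10, SE 0.16, edgeR adjusted p = 0.620). Library totals ran from 16055534 to 20306129 counts. The epithelial keratins were abundant, with KRT7 at 342 to 507 FPKM (fragments scaled by gene length and library, so that levels of different genes can be compared) and KRT18 at 484 to 1007 FPKM, and EPCAM was at 4.07 to 7.48 FPKM. Of the 8 markers listed for A549 epithelium, CDH1, ALDH1A1, KRT19 and AKR1B10 averaged under 1 FPKM. CDKN2A, at 60.5 to 120.2 FPKM, and MTAP, at 19.1 to 23.6 FPKM, were expressed in all 12 libraries, although A549 is widely described as having lost both genes by deletion. These 2 genes were chosen after their values were seen, the data go against the cell line label on this point, and the cells are called the cells labelled A549 or simply cells. All 6 alveolar type II markers, all 6 leukocyte markers, 3 of 4 endothelial markers and 5 of 6 fibroblast markers averaged under 1 FPKM. The deficient PBS library of replicate 1 stood apart in the basal keratins. KRT5 was at 0.236 FPKM there and at 4.50 to 19.5 FPKM in the other 11 libraries. The numbers of called differences, of opposite genes and of genotype differences under PBS are given with and without this library. Other class sizes, list counts and list medians are given on all 12 libraries only.

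The AA effect differed between the genotypes in a large share of the transcriptome. Of 12718 genes, 5703 (44.8%) were called, that is, had a Benjamini-Hochberg adjusted p under 0.05 in edgeR's quasi-likelihood test of the difference. The AA effect was higher in deficient cells for 2760 of them (21.7% of the genes tested) and lower for 2943 (23.1%). Without the deficient PBS library of replicate 1, 5456 differences were called. The difference over all tested genes had a median of -0.01 and a median SE of 0.10. With library size as the only scaling the share of higher calls moved from 48.4% to 58.0%, and on log2(FPKM + 1) values to 60.3%, so the balance of higher and lower calls depends on the scaling while the number called did not move by over 1.5 times under either. The called genes nearest the threshold were MTRFR, with a difference of -0.27, and XPC, with -0.18, and the nearest uncalled ones were UTP14A, with 0.14, and DHRS1, with -0.41.

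The AA effects themselves were widespread in both genotypes. In deficient cells AA raised 4718 genes (37.1%) and lowered 4764 (37.5%), and in intact cells it raised 4400 (34.6%) and lowered 4469 (35.1%). Both effects went the same way, without a called difference, in 3882 genes. A missed call does not show equal effects, but the 95% interval of the difference lay within 0.5 log2 of 0 on both sides in 2685 of these (1267 raised and 1418 lowered). Among the 5703 called differences, 762 (13.4%) were genes with both effects called and opposite in sign, 2684 (47.1%) had both effects called in 1 direction with unequal size, 2218 had 1 of the 2 effects called, and 39 had neither.

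**Figure D1:**
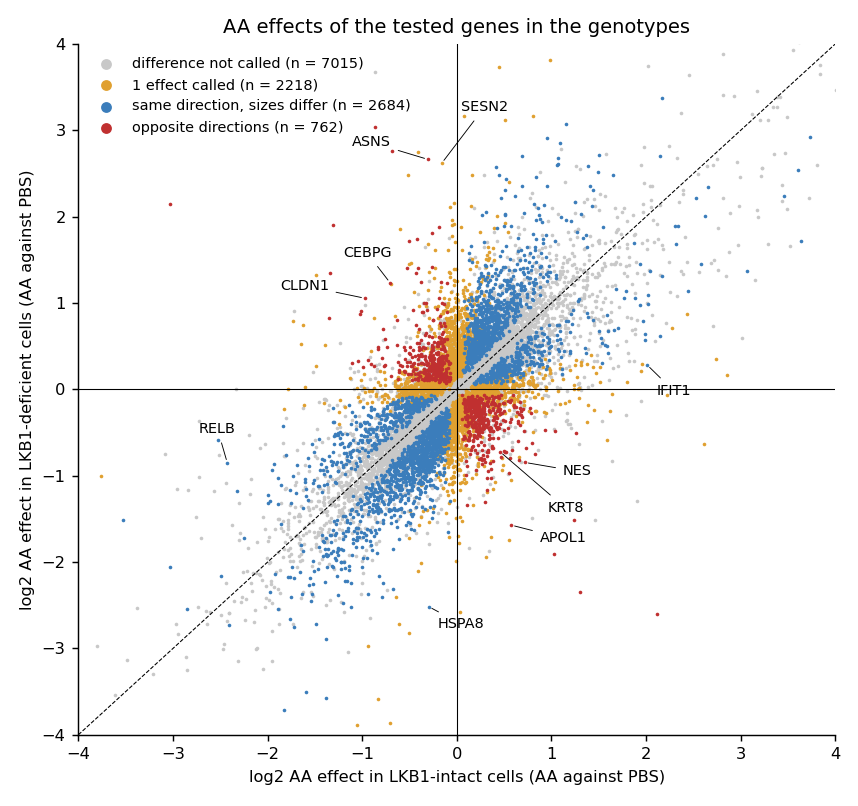
Log2 AA effect in LKB1-intact cells (horizontal axis) against the log2 AA effect in LKB1-deficient cells (vertical axis), 1 point per tested gene, with colours for the class of the difference and a dashed line where both effects are equal. The 762 red points lie in the upper left and lower right quadrants, most of them near the origin, and 63 genes beyond 4 log2 on either axis are not drawn.

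The genotypes differed little under PBS and widely under AA. Counted in the same fit, 65 genes (0.511%) were called between deficient and intact cells under PBS, 17 higher and 48 lower in deficient cells. Under AA the genotypes differed in 7536 genes (59.3%), 3674 higher and 3862 lower. The median absolute difference between the genotypes was 0.061 log2 under PBS and 0.259 log2 under AA over all tested genes. Over the 5703 genes with a called difference in AA effect it was 0.049 under PBS and 0.406 under AA. These counts share libraries with the difference in AA effect, which equals the genotype difference under AA minus that under PBS, so they describe where the difference lies and are not separate evidence of it. The count under PBS rests on few libraries: it was 18 without the intact PBS library of replicate 1, 27 without the deficient PBS library of replicate 1 and 85 without that of replicate 2.

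**Figure D2:**
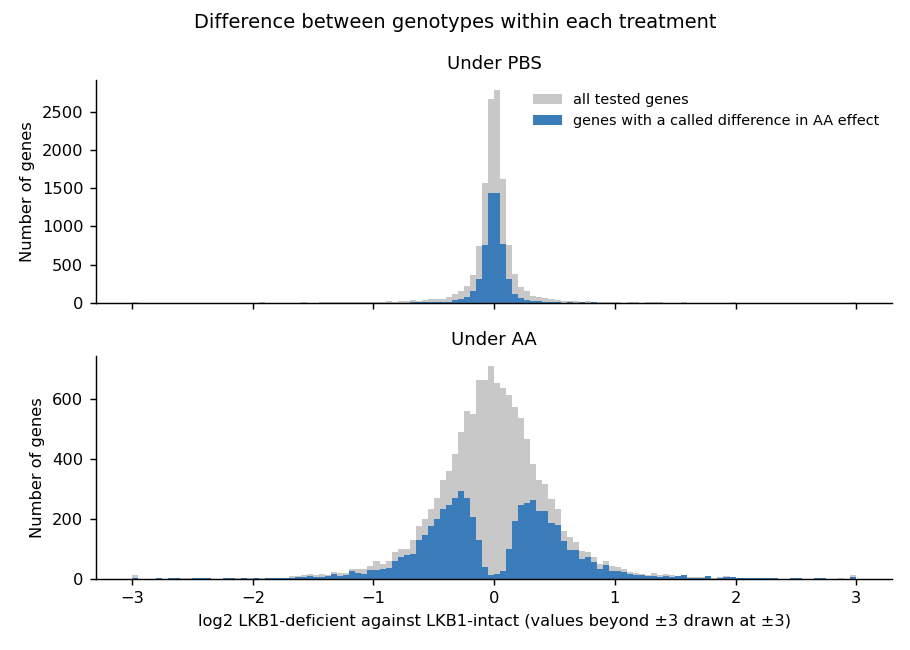
Number of genes (vertical axis) by the log2 difference of LKB1-deficient against LKB1-intact cells (horizontal axis, values beyond 3 drawn at 3) under PBS (top) and under AA (bottom), for all tested genes (grey) and for genes with a called difference in AA effect (blue). The distribution is narrow around 0 under PBS, with a median absolute value of 0.061, and wide under AA, with 0.259, where the blue genes leave a gap at 0.

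Opposite movement was called in 762 genes (5.99% of those tested) and was mostly small. AA raised 351 genes (2.76%) in deficient cells and lowered them in intact cells, and it lowered 411 genes (3.23%) in deficient cells and raised them in intact cells. The median absolute difference was 0.56 log2 in the former and 0.57 in the latter, and 33 of the 762 had both effects at or past 0.5 log2 (16 and 17). The sign of a small effect depends on the scaling: 238 of the 351 and 318 of the 411 stayed in their class under all 4 scalings of the counts, and 187 and 197 also did so on both FPKM scales. Without the deficient PBS library of replicate 1, 325 and 367 of them stayed. Only 161 of the 351 and 158 of the 411 stayed in every alternative other than the minimum of 0.5 log2. Those alternatives were other scalings, tests, filters, a stricter threshold and left-out libraries. No gene had called effects of opposite sign without a called difference. That follows nearly by construction, since the sizes of opposite effects add up in their difference, and it is no support for the class.

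Among genes that rose in deficient and fell in intact cells, CLDN1, CEBPG, SLC6A9 and ITFG2 led when genes with a mean log2 CPM of at least 3 were ranked by the smaller of their 2 effects. CLDN1 (ENSG00000163347, chr3:190305701-190322475 on the minus strand in GENCODE release 29 on GRCh38), a claudin of tight junctions, was at 71.2, 67.7 and 64.2 CPM in the intact PBS libraries and 36.6, 38.1 and 29.1 CPM under AA, and at 64.96, 78.7 and 74.5 CPM in the deficient PBS libraries and 156, 147 and 150.5 CPM under AA. The PBS libraries of the genotypes overlapped, every intact AA library lay below them and every deficient AA library above. The AA effect was 1.06 log2 in deficient and -0.97 in intact cells, a difference of 2.03 (SE 0.12, edgeR adjusted p = 3.57e-08).

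CEBPG (ENSG00000153879, chr19:33373330-33382686 on the plus strand in GENCODE release 29 on GRCh38) encodes a bZIP factor that pairs with ATF4. It was at 44.4, 44.9 and 43.4 CPM in intact cells under PBS and 27.1, 26.4 and 27.9 CPM under AA, against 46.1, 45.5 and 48.3 and then 106, 113 and 110.0 CPM in deficient cells. The 3 levels, low in intact AA, middle under PBS and high in deficient AA libraries, did not overlap, and the difference was 1.94 (SE 0.074, edgeR adjusted p = 3.53e-22). SLC6A9, a glycine transporter, went from 33.9, 33.9 and 37.4 to 23.4, 21.2 and 23.1 CPM in intact and from 35.2, 32.01 and 30.9 to 56.7, 54.6 and 60.3 CPM in deficient cells (difference 1.44, SE 0.095). ITFG2, a subunit of the KICSTOR complex that restrains mTORC1, went from 9.94, 10.1 and 12.02 to 6.87, 6.56 and 5.59 CPM in intact and from 10.9, 9.29 and 11.7 to 17.4, 16.8 and 13.8 CPM in deficient cells. Its difference was 1.35 (SE 0.17), its opposite class was lost on both FPKM scales, and 18.7% of its exon bases overlap another annotated gene, so its counts are less certain.

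The other 8 genes taken by this ranking followed. ALDH1L2, a mitochondrial enzyme of folate metabolism, had effects of 1.40 in deficient and -0.53 in intact cells, and NRG1, a ligand of ERBB receptors, of 0.92 and -0.47. ARRDC4, an alpha-arrestin related to TXNIP, had 0.49 and -0.83. NPC1, which exports cholesterol from lysosomes, and WWC3, a member of the KIBRA family, moved by nearly the same amount each way, with 0.45 and -0.46 and with 0.50 and -0.56. IQCB1, a ciliary protein gene, had 0.49 and -0.49, MARCOL 0.51 and -0.63, and MYEOV 0.47 and -0.83. The difference of all 12 genes stayed called in the 24 alternatives, though the opposite class of WWC3, IQCB1, ARRDC4, MYEOV, NRG1 and NPC1 needs the smaller of the effects to count below 0.5 log2.

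Among genes that fell in deficient and rose in intact cells, the leading ones by the same ranking, among genes with a mean log2 CPM of at least 3, were NES, APOL1, GET1 and FRK. NES, the intermediate filament gene nestin, was at 13.6, 15.5 and 14.6 CPM in the intact PBS libraries and 23.9, 24.01 and 24.1 CPM under AA, and at 12.4, 15.4 and 14.8 CPM in the deficient PBS libraries and 7.34, 8.65 and 7.71 CPM under AA. The PBS libraries again overlapped between genotypes, and the AA groups lay on either side of them. Its difference was -1.56 (SE 0.14, edgeR adjusted p = 6.14e-12). APOL1 (ENSG00000100342, chr22:36253010-36267530 on the plus strand in GENCODE release 29 on GRCh38), an apolipoprotein known for lysing trypanosomes, went from 62.98, 58.4 and 60.1 to 93.8, 83.99 and 92.2 CPM in intact cells and from 56.01, 54.7 and 63.5 to 18.4, 19.5 and 20.8 CPM in deficient cells, with a difference of -2.15 (SE 0.087). Its relative APOL2 fell in both genotypes, by 1.49 log2 in deficient and by 0.27 in intact cells.

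GET1, a receptor subunit for inserting tail-anchored proteins into the endoplasmic reticulum, went from 22.6, 19.5 and 20.9 to 32.6, 29.2 and 31.3 CPM in intact and from 25, 24.2 and 23.6 to 13.7, 13.8 and 14.4 CPM in deficient cells (difference -1.36, SE 0.11), with 22.7% of its exon bases overlapping another gene. FRK, a Src-related tyrosine kinase, went from 29.1, 26 and 27.1 to 41.7, 40.3 and 35.1 CPM and from 28.5, 23.6 and 26.2 to 17.6, 13.5 and 16.1 CPM (difference -1.24, SE 0.12). For both, the 2 AA groups lay on either side of all 6 PBS libraries. KRT8, an abundant keratin at 434 to 1116 FPKM, had effects of -0.72 in deficient and 0.46 in intact cells. HSPE1, the mitochondrial co-chaperonin, had -0.78 and 0.47, and its counts are uncertain because a read-through transcript covers it.

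The remaining 6 were LRG1, a secreted leucine-rich glycoprotein (-0.48 in deficient and 0.71 in intact cells), ADAMTS1, a secreted metalloprotease (-0.47 and 0.93), CADPS2, a factor of vesicle release (-0.44 and 0.44), RALGAPA2 (-0.71 and 0.50), OLFML1 (-0.49 and 1.04) and STOX2 (-0.57 and 0.44). RALGAPA2, OLFML1 and STOX2 left the opposite class on both FPKM scales, though their differences stayed called.

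**Figure D3:**
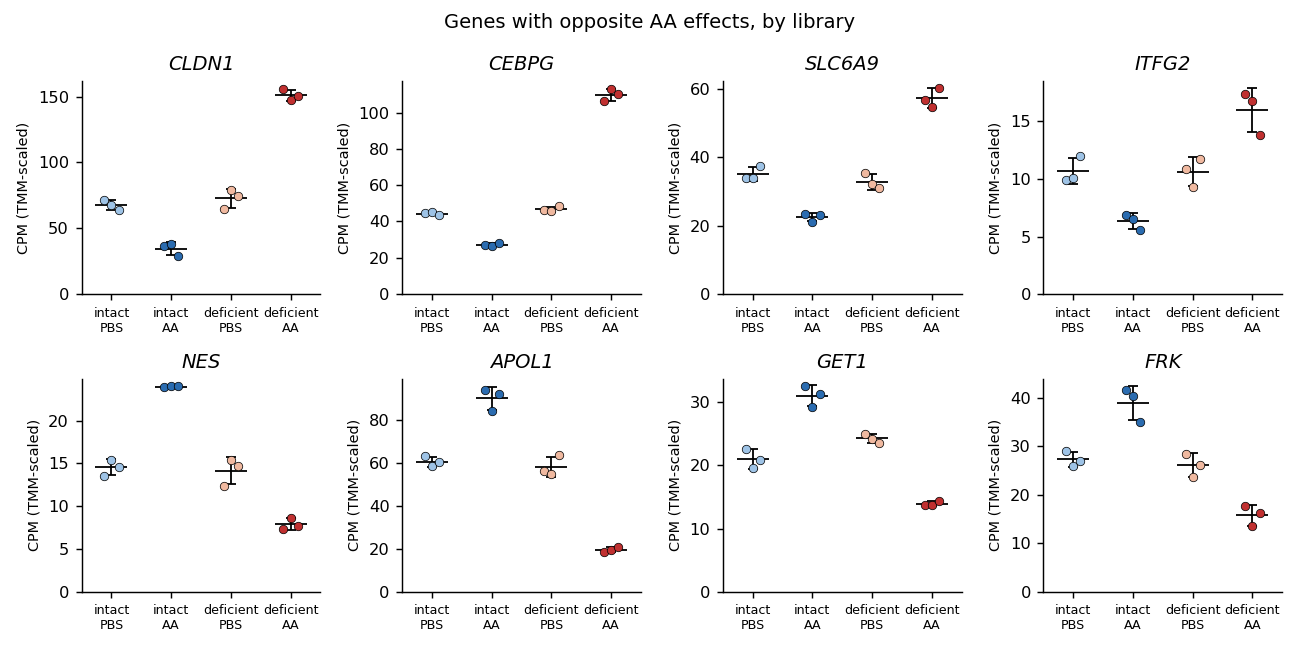
Level in CPM (vertical axes, from 0) of 8 genes with opposite AA effects in the 3 libraries of each of the 4 groups (points), with group means and SD (bars). In the top row the deficient AA libraries lie highest and the intact AA libraries lowest, in the bottom row the order is reversed, and ITFG2 left this class on the FPKM scales.

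Genes that moved in 1 direction to a different extent mostly moved further in deficient cells. Of these 2684 genes, 1953 had the larger effect in deficient cells (845 raised and 1108 lowered, with a median ratio of the deficient to the intact effect of 2.08), and 731 had the larger effect in intact cells (355 raised and 376 lowered, median ratio 0.503). Gene length went with the direction of the AA effect in these classes, whichever genotype moved further. The genes raised further in deficient cells had a median effective length of 1803 bases and those lowered further 4129 bases. In the classes larger in intact cells it was 1872 and 4013 bases, against 2602 bases over all tested genes. From the shortest to the longest of 5 equal classes of length, the median AA effect ran from 0.38 to -0.39 in deficient cells. It ran from 0.31 to -0.30 in intact cells. The median difference ran from 0.073 to -0.105 over the same classes, and the part of length in the gene calls was not tested.

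IGFBP1, a secreted binder of insulin-like growth factors, led the genes raised further in deficient cells. It went from 26.6, 28.2 and 32.4 to 37.3, 36.5 and 42.8 CPM in intact cells and from 27.8, 27.03 and 26 to 160.4, 158 and 162 CPM in deficient cells, a difference of 2.15 (SE 0.090, edgeR adjusted p = 7.29e-21). The PBS libraries overlapped, and the deficient AA libraries stood far above all others. The next were ETV5, a growth-factor-induced ETS factor (2.91 log2 in deficient and 0.95 in intact cells), PCK2, the mitochondrial enzyme that makes phosphoenolpyruvate (2.44 and 0.52), PSPH, the last enzyme of serine synthesis (2.31 and 0.51), and SMOX, which oxidises spermine and releases hydrogen peroxide (2.02 and 0.27).

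Of the genes lowered further in deficient cells, HSPA8 and HSPA1A are described with the chaperones. The others were VCP, the AAA ATPase that extracts ubiquitinated proteins (-1.30 in deficient and -0.08 in intact cells), APOL2 and CHPF2, an enzyme of chondroitin synthesis (-1.85 and -0.68). The fall of VCP in intact cells was small (SE 0.029, edgeR adjusted p = 0.0209) and not called at a threshold of 0.01. With upper quartile factors the median intact effect over all genes moved from 0.007 to 0.070, so the class of VCP is less certain than its difference.

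The genes lowered further in intact cells included RELB and SNAI2, and IFIT1, given with the interferon genes, led those raised further there. RELB, a subunit of the alternative NF-kB pathway, went from 32.2, 35.6 and 34.9 to 6.76, 6.003 and 6.36 CPM in intact cells and from 32.2, 31.5 and 27.7 to 16.4, 14.7 and 19.6 CPM in deficient cells, a difference of 1.57 (SE 0.13). All AA libraries lay below all PBS libraries, the intact ones lowest. SNAI2, a repressor of epithelial genes, fell by 1.84 in intact and by 0.43 in deficient cells, and FOXQ1, a forkhead factor, by 1.96 and 0.93. CDC42EP2, an effector of CDC42, had the widest difference of this class (2.01, SE 0.29), but 84.8% of its exon bases overlap another gene and its counts are uncertain. In the other direction SNAI1, the relative of SNAI2, rose by 3.46 in intact and 2.24 in deficient cells, VAV3, an exchange factor for small GTPases, by 2.14 and 0.62, CDK5R1, the activator of CDK5, by 1.99 and 0.58, and NDRG1, a stress-induced gene, by 1.53 and 0.31.

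In 2218 genes the difference was called and 1 effect was. The called effect was in deficient cells for 1368 genes (774 up and 594 down) and in intact cells for 850 (452 up and 398 down). A call missed in a genotype does not show that AA had no effect there. SESN2, a stress-induced inhibitor of mTORC1, was at 6.61, 7.57 and 6.96 CPM in intact PBS libraries and 6.16, 6.45 and 6.36 CPM under AA, and at 7.48, 6.74 and 5.66 and then 38.2, 43.1 and 41 CPM in deficient cells. The 9 libraries outside the deficient AA group lay between 5.66 and 7.57 CPM, and the difference was 2.78 (95% interval 2.46 to 3.09). PLAU, the urokinase gene, and the cytokine gene IL11 rose in deficient cells by 2.12 and 1.90, with uncalled effects of 0.15 and -0.06 in intact cells.

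FBXO9, a subunit of an SCF ubiquitin ligase, led those called down in deficient cells. It went from 61.8, 61.7 and 61.2 to 18.1, 18.5 and 17.3 CPM there and from 55.6, 53.1 and 56.3 to 56.5, 56.4 and 54.7 CPM in intact cells. The 9 other libraries lay between 53.1 and 61.8 CPM. GRIN2D, a glutamate receptor subunit, RAB4A, a GTPase of endosome recycling, and PDK3, a kinase that inhibits pyruvate dehydrogenase, fell in deficient cells by 1.34, 1.17 and 1.03, with uncalled effects of 0.18, 0.03 and 0.16 in intact cells.

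RHOV, an atypical small GTPase, led those called up in intact cells, from 8.87, 9.19 and 11.2 to 17.5, 17.5 and 17.4 CPM against 9.13, 7.29 and 10.2 to 7.24, 6.57 and 8.49 CPM in deficient cells. The intact AA libraries lay above the other 9. C1QTNF6, a C1q-related secreted protein, ZBTB20, a zinc finger repressor, and BCL2L15 had intact effects of 0.94, 0.85 and 0.90, and the call of BCL2L15 was lost on the FPKM scales. NT5E, the ectonucleotidase CD73, led those called down in intact cells, from 9.88, 11.03 and 10.8 to 5.94, 5.06 and 4.71 CPM against 9.25, 12.2 and 8.54 to 11.9, 10.3 and 10.2 CPM in deficient cells. The intact AA libraries lay below the other 9. AJUBA, a LIM protein of cell contacts, had -0.98 (SE 0.037) in intact and 0.02 (SE 0.035) in deficient cells. SOCS2, an inhibitor of cytokine signalling, and FOXF2, a forkhead factor, had intact effects of -1.06 and -1.24.

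Some of the strongest AA responses did not differ by much between genotypes. PTGS2, which encodes cyclooxygenase-2, went from 13.6, 12.1 and 13.3 to 89.4, 85.99 and 87.6 CPM in intact and from 12.5, 14.8 and 15.9 to 98.5, 90.2 and 85.98 CPM in deficient cells, with a difference of -0.08 and a 95% interval of -0.30 to 0.13. CDKN1A, the p21 inhibitor of cyclin-dependent kinases, rose by 2.13 in deficient and 2.15 in intact cells (interval -0.17 to 0.15). CRY2, a repressor of the circadian clock, fell by 2.13 and 2.13 (interval -0.36 to 0.35). PPP1R3D, a glycogen-targeting phosphatase subunit, had effects of -2.13 and -2.09, CCDC9B of -2.43 and -2.23, and ZNF587B of -2.34 and -2.16. In all, 139 genes had both effects at or past 1 log2 and an interval of the difference within 0.5.

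Gene groups were described by their counts beside the same shares of all tested genes, 21.7% higher and 23.1% lower, and by the median difference, which was -0.01 over all genes. The median over all genes ran from -0.04 with upper quartile factors to 0.05 on log2(FPKM + 0.1) values, so list medians of that size have no settled sign. Where 2 effects are given in brackets, the AA effect in deficient cells stands first and that in intact cells second. Members named for a count of 5 or fewer, and ATF4, were chosen after their values were seen. The counting is not stated to use strand, so genes whose exons overlap another annotated gene are less certain. Over 20% of exon bases overlap in 12 of the genes named by rule: besides GET1, HSPE1, CDC42EP2, PYCARD and XPC these are DDIT3 (39.6%), CA9 (38.5%), MTHFD2 (33.2%), PFDN6 (32.2%), PLAU (31.1%), SLC1A5 (23.8%) and IL6 (20.7%).

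The integrated stress response had the widest median difference of the 38 lists. Of 18 tested transcription factors and feedback genes of this response, 17 were higher, that is, had a higher AA effect in deficient than in intact cells, and 1, ATF5, was lower, and the median difference was 1.33. AA raised 17 of the 18 in deficient cells, while in intact cells it raised 6 and lowered 6. ATF4 itself rose in both, by 0.67 in deficient and 0.17 in intact cells. TRIB3, a pseudokinase that restrains ATF4 signalling, rose by 2.06 and 0.31. The 5 members with opposite effects were CEBPG (described above), STC2, a secreted glycoprotein (1.88 and -0.18), VLDLR, a lipoprotein receptor (0.81 and -0.26), DDIT3, the pro-apoptotic factor CHOP (1.81 and -0.26), and CEBPB, a bZIP factor (0.99 and -0.15). DDIT3 kept the opposite class in 15 of 24 alternatives and CEBPB in 16, and both left it with upper quartile factors and without single intact libraries, DDIT3 also with DESeq2 and limma-voom and CEBPB also on the FPKM scales. Their differences stayed called in all 24.

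Genes of amino acid synthesis were also mostly higher. Of 19 tested, 14 were higher and 3 lower, among them GLUL and ALDH18A1, with a median difference of 0.84. ASNS, asparagine synthetase, was at 57.3, 58.8 and 58.8 CPM in intact PBS libraries and 42.7, 51.8 and 47.3 CPM under AA, and at 52.7, 63.5 and 57.3 CPM in deficient PBS libraries and 374, 358 and 368 CPM under AA. The deficient AA libraries stood far above the other 9. Its fall in intact cells was small (-0.30, SE 0.062), and ASNS left the opposite class on the FPKM scales. PSAT1, of serine synthesis, and MTHFD2, of mitochondrial folate metabolism, rose in both genotypes, by 1.59 and 1.26 in deficient and by 0.13 and 0.23 in intact cells. MTHFD1L, also of mitochondrial folate metabolism, had opposite effects (0.30 and -0.41). GLUL, glutamine synthetase, had them the other way round, with -0.38 in deficient and 0.42 in intact cells.

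Amino acid transporters split by member. Of 15 tested, 9 were higher and 4 lower (SLC1A3, SLC7A6, SLC36A4 and SLC38A2), with a median difference of 0.58, and 5 had opposite effects. SLC7A11, the cystine importer that feeds glutathione synthesis, was at 224, 230.2 and 220.2 CPM in intact PBS libraries and 114, 117 and 109 CPM under AA, and at 246, 242 and 254 CPM in deficient PBS libraries and 303, 296 and 291 CPM under AA. It was lower in every intact AA library than in any other, and its difference was 1.25 (SE 0.048, edgeR adjusted p = 3.40e-22). Its partner SLC3A2 had effects of 0.85 and -0.18, the glutamine importer SLC1A5 of 0.91 and -0.32, and SLC38A1, another glutamine importer, of 0.24 and -0.34.

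Cytosolic aminoacyl-tRNA synthetases, which charge tRNAs with amino acids, were mostly higher. Of 20 tested, 15 were higher and 3 lower (QARS1, HARS1 and RARS1), with a median difference of 0.35. CARS1 went from 92.1, 87.3 and 91.5 to 90.9, 96.2 and 92.7 CPM in intact and from 85.9, 89.6 and 86.7 to 328, 315 and 321 CPM in deficient cells, and AARS1 from 264, 271 and 272 to 268, 266 and 271 CPM and from 259, 260.4 and 258 to 694, 669.8 and 685 CPM. The 9 libraries outside the deficient AA group ran from 85.9 to 96.2 CPM for CARS1 and from 258 to 272 CPM for AARS1, all far below the deficient AA libraries. GARS1, YARS1 and MARS1 had opposite effects (1.24 and -0.17, 0.99 and -0.14, 1.23 and -0.10). YARS1 left the class with upper quartile factors. MARS1 kept it in 13 of 24 alternatives and left it there too, with DESeq2, with limma-voom and on the FPKM scales, among others. SARS1 and TARS1 rose in both genotypes, by 1.50 and 0.94 in deficient and by 0.13 and 0.10 in intact cells. QARS1 and HARS1 had the reverse pattern (-0.10 and 0.45, -0.17 and 0.10). QARS1 kept it in 17 of 24 alternatives, not with upper quartile factors or library size only, and HARS1 in 18. Of 17 mitochondrial synthetases 3 were higher (NARS2, SARS2 and PARS2) and 8 lower.

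The promoters of ASNS and AARS1 are printed because they are members of 2 of these lists whose window holds the C/EBP-ATF element, the composite site that ATF4 and its C/EBP partners are known to bind. The element was searched as TGATGNAA on both strands in the 250 bases before the annotated start, from RefSeq on GRCh38.p14, for the 10173 of 12718 tested genes with such a window. It was found in 139 of the 10173 windows (1.37%) and in 38 of 2264 windows of genes with a called higher difference (1.68%). Among genes that rose in deficient and fell in intact cells it was in 6 of 287 windows (2.09%). Where the difference was called and at least 1 it was in 9 of 176 windows (5.11%), and where called and at or below -1 in 3 of 163 (1.84%). By list it was found in 2 of 16 of the stress response genes (ATF3 and CHAC1), 3 of 12 of amino acid synthesis (ASNS, MTHFD1L and GOT1), 1 of 13 transporters (SLC1A3) and 2 of 16 synthetases (AARS1 and IARS1). A match describes these letters in this window and nothing more, and so does the lack of one. In the windows below, written 5′ to 3′ on the strand of the gene, capitals mark the element.
ASNS, chr7:97872409-97872658, minus strand: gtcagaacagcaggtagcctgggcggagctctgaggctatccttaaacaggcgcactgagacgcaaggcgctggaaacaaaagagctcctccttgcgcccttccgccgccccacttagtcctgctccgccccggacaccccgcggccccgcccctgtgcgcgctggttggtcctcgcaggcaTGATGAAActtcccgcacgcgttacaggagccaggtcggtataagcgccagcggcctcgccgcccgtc
AARS1, chr16:70289507-70289756, minus strand: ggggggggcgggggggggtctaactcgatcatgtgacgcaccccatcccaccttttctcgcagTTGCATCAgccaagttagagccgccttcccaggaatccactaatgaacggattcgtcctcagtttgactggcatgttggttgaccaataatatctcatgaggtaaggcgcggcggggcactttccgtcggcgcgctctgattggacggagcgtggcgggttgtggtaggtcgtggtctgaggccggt

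Chaperones went the other way. Of 24 tested genes for HSP70, HSP90, their co-factors and small heat shock proteins, 3 were higher (HSPA13, HSF1 and HSPA9) and 15 lower, with a median difference of -0.45. HSPA8, the constitutive HSC70, was at 2672, 2634 and 2658 CPM in intact PBS libraries and 2127, 2190.0 and 2163 CPM under AA, and at 2606, 2680.0 and 2636 CPM in deficient PBS libraries and 477, 441 and 467 CPM under AA. It fell in both genotypes, and the difference of -2.22 (SE 0.036) is one of size. HSPA1A, whose near-identical copy HSPA1B shares its reads and makes it uncertain as a single gene, fell by 1.66 in deficient and 0.09 in intact cells. The intact fall was small (SE 0.034, edgeR adjusted p = 0.0143), so its class is less certain than its difference.

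Of the 24 chaperone genes 9 fell in deficient and rose in intact cells. HSP90AA1, the inducible HSP90, went from 1800.0, 1812 and 1799 to 1866, 1985 and 1917 CPM in intact and from 1785, 1841 and 1872 to 913, 939.5 and 921 CPM in deficient cells. The intact AA libraries lay above all PBS libraries of their genotype and the deficient ones far below. HSP90AB1 had -0.55 and 0.18, HSPH1, a nucleotide exchange factor of HSP70, -0.42 and 0.20, AHSA1, an activator of HSP90, -0.58 and 0.17, BAG3, of chaperone-assisted autophagy, -0.50 and 0.24, STIP1, which links HSP70 to HSP90, -0.32 and 0.09, and HSPD1, the mitochondrial chaperonin, -0.31 and 0.18. HSPA14 (-0.18 and 0.21) and HSPE1 complete the 9 members with opposite effects, and HSPA14 kept that class in 15 of 24 alternatives, not with upper quartile factors, library size only or FPKM.

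The co-chaperones were less uniform. Of 24 DNAJ genes, 7 were higher and 8 lower, with a median difference of -0.02. DNAJA1, a partner of HSC70, went from 324, 319.5 and 324 to 422, 418 and 419 CPM in intact and from 322, 331 and 337 to 223, 198 and 199 CPM in deficient cells, so that the AA groups lay on either side of all PBS libraries. DNAJB4 (-0.66 and 0.37) and DNAJB6 (-0.17 and 0.15), both suppressors of protein aggregation, moved likewise, DNAJB2 had the reverse (0.24 and -0.26, in 18 of 24 alternatives), DNAJB1 was called in intact cells (0.44) and DNAJA3, the mitochondrial member, in deficient cells (0.60). Of 14 genes of the TRiC chaperonin and prefoldin, which fold actin and tubulin, 3 were higher (CCT5, PFDN4 and PFDN2) and 5 lower (PFDN6, PFDN5, CCT3, CCT6A and TCP1). CCT3 had opposite effects (-0.39 and 0.26), and CCT6A too (-0.16 and 0.06), though in 14 of 24 alternatives only and not on the FPKM scales or without any 1 of 5 intact libraries. PFDN2 rose in both (1.18 and 0.22), PFDN5 and PFDN6 were called in intact cells (0.60 and 0.64), and the median of 0.04 turned to -0.02 once the trend with gene length was removed.

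In the endoplasmic reticulum, 26 genes of chaperones and stress targets were tested, of which 4 were higher (HYOU1, ATF6, HERPUD1 and XBP1) and 12 lower, with a median of -0.12. XBP1, a transcription factor of the unfolded protein response, went from 171, 168 and 167 to 163, 160.3 and 166 CPM in intact and from 169.9, 171 and 160.5 to 291, 271 and 289.5 CPM in deficient cells. The deficient AA libraries lay far above the other 9. ATF6, the membrane-bound sensor, rose by 0.53 and HERPUD1, of protein degradation, by 0.68 in deficient cells, with 0.00 (not called) and 0.12 in intact cells. PDIA4, a disulfide isomerase, fell in deficient cells (-0.35). CALR, a calcium-binding chaperone, had opposite effects (-0.23 and 0.14), as did SEC61B (-0.14 and 0.21) and CRELD2 (-0.21 and 0.21). SEC61B kept the class in 14 and CRELD2 in 8 of 24 alternatives, and neither kept it with upper quartile factors, with library size only, with DESeq2 or on the FPKM scales.

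HSPA8 and DNAJB6 are printed from the HSP70 and HSP90 list and the DNAJ list. They are the 2 genes there with both a called difference and the heat shock element in the window. The element is the array of GAA units that HSF1 binds, and the TRiC and endoplasmic reticulum lists were not counted for it. The element was searched as GAANNTTCNNGAA on both strands and was found in 29 of 10173 windows (0.285%). It was in 2 of 22 of the HSP70 and HSP90 list (HSPA8 and CHORDC1, whose difference of -0.03 was not called) and in 1 of 23 DNAJ windows. Among genes with a called lower difference it was in 8 of 2418 (0.331%), and with a called higher one in 3 of 2264 (0.133%). Among shared responses without a called difference it was in 14 of 3146 (0.445%). Capitals mark the matches, of which HSPA8 has 2.
HSPA8, chr11:123062137-123062386, minus strand: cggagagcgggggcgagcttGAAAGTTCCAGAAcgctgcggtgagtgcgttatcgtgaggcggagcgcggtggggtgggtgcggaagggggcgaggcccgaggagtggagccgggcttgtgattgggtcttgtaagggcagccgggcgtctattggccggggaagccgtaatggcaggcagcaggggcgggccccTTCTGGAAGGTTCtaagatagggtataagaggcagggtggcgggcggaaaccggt
DNAJB6, chr7:157336754-157337003, plus strand: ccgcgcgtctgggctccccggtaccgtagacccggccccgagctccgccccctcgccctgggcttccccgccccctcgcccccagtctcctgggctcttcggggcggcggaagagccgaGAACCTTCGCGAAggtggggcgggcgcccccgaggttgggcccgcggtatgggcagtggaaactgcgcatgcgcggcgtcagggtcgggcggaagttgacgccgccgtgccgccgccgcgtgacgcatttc

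AA lowered NF-kB genes in intact cells more than in deficient cells. Of 25 tested subunits, inhibitors and targets of NF-kB, 19 were higher and 2 lower (CCL2 and REL), with a median difference of 0.68. In intact cells 18 fell and 3 rose, and in deficient cells 12 fell and 7 rose. NFKB2, the precursor of p52, went from 232, 222 and 232 to 94.7, 89.6 and 91.9 CPM in intact and from 219, 232 and 214 to 195, 186 and 191 CPM in deficient cells. The intact AA libraries lay far below all others, and the deficient AA libraries just below the PBS ones. NFKB1, the precursor of p50, fell by 1.07 in intact and 0.37 in deficient cells, and BIRC3, an inhibitor of apoptosis induced by NF-kB, by 1.51 and 0.72. IL6 had opposite effects, 0.93 in deficient and -0.21 in intact cells, and RELA 0.10 and -0.13. IL6 kept the class in 16 of 24 alternatives and RELA in 19. Both lost it with upper quartile factors, and IL6 also with DESeq2 and on the FPKM scales.

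Interferon-stimulated genes with a called difference were mostly lower. Of 24 tested, 1 was higher (IFI35) and 10 lower, with a median of -0.41, and most rose in both genotypes (14 in deficient and 19 in intact cells). IFIT1, an antiviral RNA-binding protein, went from 7.55, 6.43 and 8.59 to 27.1, 31.4 and 32.5 CPM in intact and from 8.27, 7.71 and 8.54 to 9.11, 9.25 and 11.5 CPM in deficient cells. Every intact AA library lay above every other one. OAS1, an oligoadenylate synthetase, had opposite effects (-0.27 and 0.78, lost on the FPKM scales), as did IFIT3 (-0.45 and 0.20, lost there and without single intact libraries, kept in 16 of 24 alternatives). OAS3, a relative of OAS1, fell in deficient cells (-0.81), and BST2, which tethers virions, rose in intact cells (0.70).

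BIRC3 and IFIT1 are printed as a called member of each of the NF-kB and interferon lists with the matching element in its window. The NF-kB element GGGNNTTTCC (which can share its TTTC with the interferon element) was found on either strand in 10 of 22 windows of its list and in 200 of all 10173 (1.97%), and the interferon element TTTCNNTTTC in 10 of 17 of its list and in 231 of all (2.27%). Both lists are made of long-known targets of these factors. Among genes with a called higher difference the NF-kB element was in 56 of 2264 windows (2.47%), and among genes with a called lower one the interferon element was in 71 of 2418 (2.94%). Capitals mark the elements, 2 in IFIT1.
BIRC3, chr11:102317234-102317483, plus strand: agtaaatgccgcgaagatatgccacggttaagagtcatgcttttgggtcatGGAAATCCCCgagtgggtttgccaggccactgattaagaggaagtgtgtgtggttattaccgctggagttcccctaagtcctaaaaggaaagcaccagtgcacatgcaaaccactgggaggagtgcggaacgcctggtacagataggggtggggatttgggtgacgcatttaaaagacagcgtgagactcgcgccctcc
IFIT1, chr10:89392373-89392622, plus strand: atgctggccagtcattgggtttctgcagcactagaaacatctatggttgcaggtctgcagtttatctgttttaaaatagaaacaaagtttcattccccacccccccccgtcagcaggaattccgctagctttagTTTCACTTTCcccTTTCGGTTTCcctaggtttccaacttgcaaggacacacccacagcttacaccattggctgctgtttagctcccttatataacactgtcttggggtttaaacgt

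Immediate early genes and feedback genes of ERK signalling mostly rose in both genotypes, 26 of 31 in deficient and 22 of 31 in intact cells. Of the 31, 19 were higher and 4 lower (FOS, JUN, HBEGF and IER5), with a median of 0.35. FOS, a subunit of AP-1, went from 1.64, 1.30 and 2.19 to 87.7, 83.8 and 91.4 CPM in intact and from 2.08, 2.31 and 2.15 to 46.3, 53.4 and 53.5 CPM in deficient cells. The intact AA libraries were higher than the deficient ones. ETV4, like ETV5 an ETS factor downstream of ERK, rose by 2.23 and 0.62, and DUSP5, an ERK phosphatase, by 1.96 and 1.15. AREG, an EGF receptor ligand, rose in deficient cells by 1.92 with an uncalled -0.03 in intact cells. KLF10, a zinc finger factor, had opposite effects (0.31 and -0.62), as did SPRED1, an inhibitor of Ras signalling (0.41 and -0.50), which lost its class on the FPKM scales.

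Of 23 tested genes of the LKB1 complex, AMPK and the AMPK-related kinases, 7 (30.4%) had a called difference in edgeR's test, against 44.8% of all genes. All 7 were higher, and none moved in opposite directions in the genotypes with both effects called. SNRK, an AMPK-related kinase, was at 33.2, 32.6 and 30.7 CPM in intact PBS libraries and 29.1, 29.9 and 28.97 CPM under AA, and at 33.2, 34.1 and 32.8 and then 39.9, 42.05 and 42.7 CPM in deficient cells. The deficient AA libraries were above all others. MARK3, a kinase of cell polarity, rose by 0.55 and 0.23, CAB39, the scaffold MO25 of the LKB1 complex, by 0.23 in deficient cells, and the AMPK beta subunit gene PRKAB1 by 0.44, with a difference whose call was lost on the FPKM scales. NUAK1, another AMPK-related kinase, fell in intact cells (-0.38).

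Among the AMPK subunits, PRKAA2 (0.57 and 0.33) and PRKAG1 (0.40 and 0.20) rose further in deficient cells, though PRKAA2 kept its call in 16 of 24 alternatives. The difference was not called for PRKAA1 (0.08, interval -0.01 to 0.17), PRKAB2 (0.13, -0.06 to 0.32) or PRKAG2 (0.18, -0.01 to 0.38). The salt-inducible kinases that LKB1 activates had intervals of -0.07 to 0.20 for SIK1, -0.17 to 0.12 for SIK2 and -0.43 to 0.01 for SIK3, and the pseudokinase partners of LKB1 -0.30 to 0.17 for STRADA and -0.22 to 0.24 for STRADB. The uncalled differences of CAB39L, MARK1, MARK2, MARK4, NUAK2, BRSK1 and BRSK2 ran from -0.69 in MARK1 to 1.44 in BRSK1, both under 3 CPM in every library.

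Targets of CREB and its CRTC co-activators, which salt-inducible kinases hold out of the nucleus, lay on both sides. Of 19 tested, 5 were higher (AREG, PPARGC1A, ATF1, PDE4D and DUSP1) and 4 lower (FOS, NR4A2, NR4A3 and ID1), with a median of 0.06. PPARGC1A, a co-activator of mitochondrial genes, had opposite effects (0.25 and -0.28), in 19 of 24 alternatives, though not on the FPKM scales, where its difference was not called. ATF1, a CREB relative, rose by 0.81 and 0.45, with no call on the FPKM scales, and ID1 fell by 0.87 and 0.62. The cAMP element TGACGTCA, searched in the promoter windows, was in 296 of 10173 (2.91%). It was in 3 of 176 windows of genes with a called difference of at least 1 (1.7%) and in 1 of 163 at or below -1 (0.613%). A CACGTG box, also searched, was in 916 of 10173 windows (9.0%), 13 of the 176 (7.39%) and 16 of the 163 (9.82%).

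Pyroptosis is the death program that the series title names for deficient cells. Of 25 listed genes, 17 passed the filter, and 6 were higher and 3 lower (DPP8, CASP1 and DPP9), with a median of 0.15. GSDMD, the gasdermin cut by inflammatory caspases, had a mean of 2.67 counts per library and was not tested, nor were GSDMA, GSDMB, GSDMC, CASP5, NLRP3, AIM2 and MEFV. GSDME, another gasdermin, went from 102, 100.2 and 98.8 to 95.1, 100.1 and 103 CPM in intact and from 103, 100.1 and 103 to 127, 126 and 126 CPM in deficient cells. The deficient AA libraries lay above the other 9, with a difference of 0.32 (interval 0.20 to 0.43).

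TXNIP, which binds thioredoxin and activates the NLRP3 inflammasome, went from 45.8, 45.3 and 49.2 to 53.5, 58.5 and 59.2 CPM in intact and from 52.8, 47.1 and 58.1 to 162, 176 and 179 CPM in deficient cells. The deficient AA libraries stood apart from the other 9. CASP4, an inflammatory caspase, rose by 0.92 and 0.32, and the cytokine gene IL18 by 1.04 and 0.44. IL1A rose in deficient cells (1.70, SE 0.30) from under 1.5 CPM, and NINJ1, which ruptures the membrane of dying cells, by 0.21. The NLRP1 inhibitors DPP8 and DPP9 fell in deficient cells, by 0.81 and 0.43, the difference of DPP8 not being called on the FPKM scales. CASP1 rose further in intact cells (0.65 against 0.27), a difference that kept its call in 13 of 24 alternatives.

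Those not called different included CASP8 (-0.13), NLRP1 (0.01), NEK7 (0.15), CARD8 (-0.10), IL1B (0.51), NLRC4 (-0.90) and PYCARD (0.23). NLRC4 and IL1B were under 1 CPM in every library, and 59.7% of the exon bases of PYCARD overlap another gene.

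AA effects on glycolysis were mostly lower in deficient cells. Of 22 tested genes of glycolysis and lactate transport, 2 were higher (SLC16A1 and SLC2A1) and 16 lower, with a median of -0.33. In intact cells AA raised 20, and in deficient cells it raised 9 and lowered 5. PGAM1, phosphoglycerate mutase, went from 556, 540.2 and 555 to 621, 604 and 639 CPM in intact and from 564, 567 and 537 to 373, 363 and 364 CPM in deficient cells, on either side of all PBS libraries. PKM, pyruvate kinase (-0.14 and 0.38), LDHA, lactate dehydrogenase (-0.17 and 0.28), and HK1, hexokinase (-0.41 and 0.09), also had opposite effects. GPI did too (-0.07 and 0.28), but in 13 of 24 alternatives only, not with upper quartile factors, library size only or FPKM nor without any 1 of 4 deficient libraries. PGK1, phosphoglycerate kinase, was called in intact cells (0.46).

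Hypoxia-inducible factors and their targets were split. Of 22, 4 were higher (EGLN1, HIF1A, EPAS1 and VEGFA) and 7 lower, with a median of -0.08. VEGFA, the angiogenic ligand, went from 51.5, 57.9 and 53.4 to 79.8, 74.4 and 72.9 CPM in intact and from 57.7, 56.5 and 57.4 to 178, 176 and 165 CPM in deficient cells. All AA libraries lay above all PBS libraries, the deficient ones highest. HIF1A, the oxygen-regulated alpha subunit, rose in deficient cells (0.45) and its relative EPAS1 had opposite effects (0.29 and -0.25). The carbonic anhydrase CA12 went the other way, from 62.5, 62.1 and 66.4 to 83.3, 82.8 and 80.1 CPM in intact and from 60.4, 61.04 and 65.2 to 33.4, 32.96 and 32.2 CPM in deficient cells, on either side of all PBS libraries. CA9, its relative, was low, at 0.692, 1.19 and 1.91 CPM in intact PBS and 3.54, 2.95 and 2.95 CPM in intact AA libraries and at 0.551, 0.668 and 1.23 and then 0.240, 0.0548 and 0.157 CPM in deficient cells, and PLOD2, a collagen lysyl hydroxylase, had -0.44 and 0.29, lost as opposite on the FPKM scales.

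NRF2, the master factor of antioxidant genes, had targets on both sides: of 29 genes of its pathway 8 were higher and 12 lower, with a median of -0.16. HMOX1, heme oxygenase, went from 17.1, 15.7 and 19.1 to 22.1, 24.2 and 23.6 CPM in intact and from 15.1, 15.4 and 15 to 13.04, 10.6 and 12.5 CPM in deficient cells. The AA groups lay on either side of all PBS libraries. GSR, glutathione reductase, fell in deficient cells (-0.45), AKR1C3 rose further in intact cells (1.11 against 0.18), MAFK, a small MAF partner of NRF2, fell further in intact cells (-0.93 against -0.40), and TKT, of the pentose phosphate pathway, had -0.10 and 0.24. TKT left the opposite class on the FPKM scales, with upper quartile factors and with library size only.

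Cholesterol genes mostly fell, 20 of 25 in deficient and 18 in intact cells. Of the 25, 1 was higher and 13 lower, with a median of -0.20. HMGCS1, of the mevalonate pathway, went from 432, 448 and 423 to 283, 289.6 and 280.3 CPM in intact and from 441, 488 and 459.8 to 141, 135 and 142 CPM in deficient cells. All AA libraries lay below all PBS libraries, the deficient ones lowest. SQLE, which epoxidises squalene, fell by 1.66 and 0.86, MSMO1 by 1.57 and 0.54, and INSIG1, the anchor that keeps SREBP in the endoplasmic reticulum, by 1.11 and 0.25.

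Transcripts of the mitochondrial genome fell in both genotypes, 13 of 13 in deficient and 12 in intact cells. In 9 the AA effect was lower in deficient cells and in 1 (MT-ND6) it was higher, with a median difference of -0.54. Their summed share of all counts was 5.25% ± 0.0862 in intact PBS, 3.65% ± 0.0589 in intact AA, 5.20% ± 0.147 in deficient PBS and 2.59% ± 0.0481 in deficient AA libraries (SD, n = 3 each). The part of this shift in the results of other genes was not tested. MT-CYB, of respiratory complex III, fell by 1.65 in deficient and 0.91 in intact cells, and MT-CO1, MT-CO2 and MT-CO3, of complex IV, by 0.92, 0.88 and 1.29 and by 0.27, 0.36 and 0.60, while MT-ND2, of complex I, fell by 1.33 and 0.84.

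Cytosolic ribosomal protein genes rose in both genotypes, 45 of 49 in deficient and 49 in intact cells, and in 17 the AA effect was lower in deficient cells, with 1 higher (RPL10) and a median of -0.11. RPL7A had the widest gap of those named, with 0.60 in intact and -0.06 in deficient cells, and it kept the opposite class in 18 of 24 alternatives, not with upper quartile factors, library size only or FPKM. RPL4, RPL15 and RPS14 rose by 0.53, 0.59 and 0.66 in intact and by 0.09, 0.10 and 0.15 in deficient cells. These genes have many processed copies, so estimated counts of single members are uncertain.

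**Figure D4:**
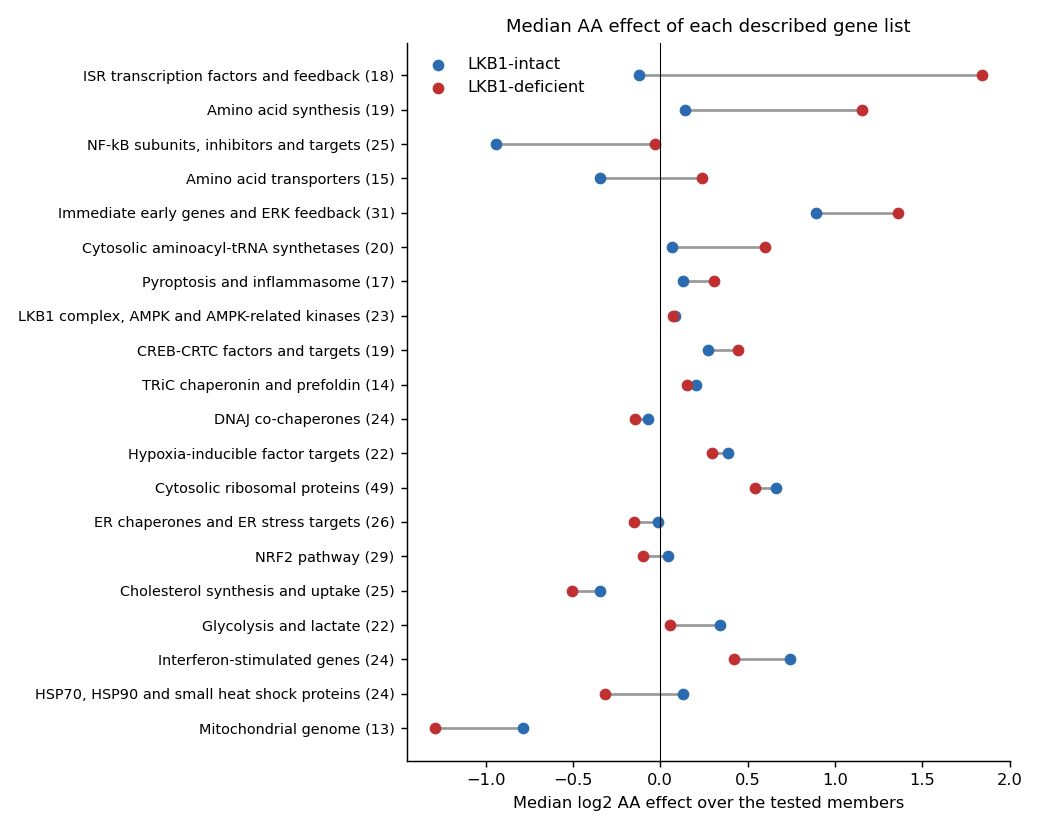
Median log2 AA effect (horizontal axis) over the tested members of 20 gene lists, with the number of members in brackets, in LKB1-intact (blue) and LKB1-deficient cells (red), ordered by the median difference of the members. The stress response list lies at -0.12 in intact and 1.85 in deficient cells, and the NF-kB list at -0.94 and -0.03; the distance between the points need not equal the median difference, as in the LKB1 and TRiC lists.

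The remaining lists were counted only. The proteasome, which degrades ubiquitinated proteins, had 4 higher (PSMD4, PSMD7, PSMD14 and PSMB6) and 19 lower of 30 (median -0.20), and 6 of its genes had opposite effects. Nuclear genes of the respiratory chain had 3 higher (NDUFS1, SDHB and CYC1) and 12 lower of 36 (-0.10), and genes of DNA replication 4 higher (TYMS, CDC6, RFC4 and CDC45) and 12 lower of 24 (-0.15). Genes of G2 and mitosis had 13 higher and 4 lower of 24 (KIF20A, PTTG1, MKI67 and NUSAP1), with a median of 0.16, so the cell cycle lists lay on both sides of 0. Of the respiratory chain genes 2, of the DNA replication genes 4 and of the mitosis genes 1 fell in deficient and rose in intact cells. The reverse was found in 2 of the mitosis genes.

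The BCL2 family had 7 higher and 3 lower of 16 (BCL2L11, BOK and MCL1; median 0.19). YAP-TEAD targets, read by cell contacts, had 10 higher and 5 lower of 16 (AMOTL1, CCN2, CCN1, LATS2 and WWTR1), with a median of 0.17. Epithelial and mesenchymal genes had 8 higher and 6 lower of 19 (0.16). Genes of BMP and TGF-beta feedback had 1 higher (TGIF1) and 2 lower (SMAD6 and ID1) of 12 (0.08). Rising in deficient and falling in intact cells were 1 BCL2 family gene, 1 YAP-TEAD target and 3 epithelial and mesenchymal genes. The reverse was found in 1 BCL2 family gene and 1 epithelial and mesenchymal gene.

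In the growth and turnover lists, regulators of mTORC1 had 4 higher (MLST8, DDIT4, EIF4EBP1 and SESN2) and 4 lower (SESN1, DEPDC5, CASTOR2 and RPTOR) of 16 (0.02), ribosome biogenesis 9 higher and 2 lower (POLR1A and BYSL) of 25 (0.05), and autophagy and lysosome genes 12 higher and 5 lower (ATP6V0D1, CTSB, LAMP2, WIPI1 and ATP6V1H) of 25 (0.15). Mitochondrial synthetases, counted above, had a median of 0.04. Fatty acid genes had 4 higher (ACSL4, ACSL3, FADS1 and ELOVL1) and 7 lower of 15 (-0.09). Rising in deficient and falling in intact cells were 1 fatty acid gene, 1 of ribosome biogenesis and 1 of autophagy and lysosome. The reverse was found in 2 fatty acid genes, 2 regulators of mTORC1 and 1 mitochondrial synthetase.

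In the redox and metal lists, thioredoxin, peroxiredoxin and antioxidant enzymes had 5 higher (TXNRD1, SOD2, GSS, TXNRD2 and TXNIP) and 10 lower of 21 (-0.17), iron handling 5 higher (FTH1, SLC11A2, PCBP2, SLC25A37 and SLC39A14) and 7 lower of 19 (-0.11), and metallothioneins and zinc sensing 3 higher (MT2A, SLC30A1 and MT1E) and 3 lower (MT1X, SLC39A10 and MTF1) of 6 (-0.02). Of 16 circadian clock genes 5 were higher (PER2, NPAS2, NR1D2, BMAL1 and NR1D1) and none was called lower by edgeR (median 0.13). NR1D1, a repressor of BMAL1 in the clock loop, and BMAL1 itself rose in both genotypes, with differences of 1.32 and 1.09. Of the other called clock genes 2 rose in deficient and fell in intact cells, and 1 had an effect called in intact cells only. In the redox and metal lists 1 thioredoxin, 1 iron and 1 metallothionein list gene also rose in deficient and fell in intact cells. The reverse was found in 1 thioredoxin and 1 iron list gene.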

How the data were processed

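RNA of cells labelled A549 was sequenced in 12 libraries, 3 in each of 4 groups taken from the genotype and treatment labels. The deposited tables hold estimated counts per gene and FPKM values, both made by the authors. Per the submitters' processing notes the tools included HISAT2 2.1.0 and Bowtie2 2.2.8, fastp 0.18.0, RSEM (no version) and StringTie 1.3.1. No source used here gives the genome build or the strand setting. Between 10.9% and 11.5% of the count values had a fraction and were rounded to whole numbers. Fractions arise where a read is shared out between similar genes, which makes near-identical copies uncertain.

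Genes were filtered with edgeR 4.0.16's filterByExpr by group at a minimum count of 10, which kept 12718 genes holding 99.97% of the counts, and scaled with TMM factors. One quasi-likelihood model with a mean for each of the 4 groups was fitted in R 4.3.3 to all 12 libraries with no covariate. The contrasts were the AA effect in each genotype, their difference (deficient minus intact), and the genotype difference under PBS and under AA. The counts of the latter 2 contrasts were added after their values were seen. P-values were adjusted by Benjamini-Hochberg over all genes, with 0.05 as the threshold, and each SE is the absolute log2 change over the square root of F. The fitting code was also run on simulated counts in which few genes had a difference. Since many were called here, that run does not measure the error rate in these data.

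The members, the 38 gene lists and the classes were chosen with earlier results of these data known. Outside the lists, genes with a mean log2 CPM of at least 3 were named by rank within a class: 12 per opposite class by the smaller effect, 5 and 4 per other class by the difference, 6 shared responses by the smaller effect. From each of 20 lists the 5 called members of smallest p and all with opposite effects were named, and from the LKB1 and pyroptosis lists the tested members. Some named members and 1 list are not reported here. Alternatives were other scalings, DESeq2 1.42.0, limma-voom (limma 3.58.1), log2(FPKM + 1) and log2(FPKM + 0.1) on the deposited FPKM, other filters and thresholds, each library left out, and a replicate block. Symbols were found for 20301 of 20323 identifiers, and 20171 were in GENCODE release 29.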

Additional observations from a re-analysis of the deposited data

Results flagged for a closer look

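The difference between the AA effects is itself a test between the genotypes, so the genes called in it were drawn here for a closer look: 5703 in all, with 351 that rose in deficient and fell in intact cells and 411 that did the reverse. The genes named from the former had differences of 2.03 (CLDN1), 1.94 (CEBPG), 1.44 (SLC6A9), 1.35 (ITFG2), 1.94 (ALDH1L2), 1.14 (MARCOL), 1.05 (WWC3), 0.99 (IQCB1), 1.32 (ARRDC4), 1.30 (MYEOV), 1.39 (NRG1) and 0.92 (NPC1). Those named from the latter had -1.56 (NES), -2.15 (APOL1), -1.36 (GET1), -1.24 (FRK), -1.21 (RALGAPA2), -1.52 (OLFML1), -1.19 (LRG1), -1.40 (ADAMTS1), -1.25 (HSPE1), -1.18 (KRT8), -1.01 (STOX2) and -0.87 (CADPS2). ITFG2, RALGAPA2, OLFML1 and STOX2 did not keep the opposite class on the FPKM scales. Groups of 3 libraries are too small for a test of outlying samples.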

How the results depend on the processing

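The number of called differences was 5240 with DESeq2, 5625 with limma-voom, between 5707 and 5770 with 3 other scalings, 4457 and 4411 on the FPKM scales, and 5288 to 5595 when 1 library was left out. It fell to 2160 when changes of at least 0.5 log2 were required (1069 higher and 1091 lower), and opposite classes then held 16 and 17 genes. With that minimum 277 genes moved further in deficient and 86 further in intact cells, 370 had 1 effect called in intact cells, 2310 were shared, and the genotypes differed in 14 genes under PBS and 2496 under AA. On log2(FPKM + 1) and log2(FPKM + 0.1) values, 1768 and 1763 differences were lower, 218 and 215 genes fell in deficient and rose in intact cells, 452 and 447 moved further in intact cells, and 5 and 5 differed between genotypes under PBS. At an adjusted p under 0.01 the opposite classes held 226 and 267 genes, 427 moved further in intact cells and 24 differed under PBS. Under PBS limma-voom called 37 genes, and leaving out 1 library gave 18 to 85: 18, 23 and 25 without intact PBS replicates 1, 2 and 3, and 27, 85 and 30 without deficient PBS replicates 1, 2 and 3. These are fewer samples or stricter rules by construction, and the cause of the other shifts was not tested. Removing the trend with gene length turned the median of the TRiC list from 0.039 to -0.017, of the mTORC1 list from 0.025 to -0.026 and of the metallothionein list from -0.019 to 0.086. Named genes were compared under the alternatives, and list medians, which carry no call, only with the length trend removed. Of these values together 4884 stayed as they were, 100 lost the call and 23 gained one. Another 6 moved, and 3, the list medians just given, turned in sign.

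With the replicate number as a replicate block, 5636 differences and 745 opposite genes were called, and 59 genes differed under PBS. Same-numbered libraries had correlations of deviations from -0.207 to 0.142, over 0.1 in 3 of 18 pairs, and 5 of 12 libraries correlated best with their own number. With 3 libraries in each group, these values cannot show whether same-numbered libraries shared a culture or a preparation. The labels do not say so either.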
